A study of Homo sapiens with 8 samples.

Results

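H3K9me3 intervals that parental PC9 cells and drug-tolerant persisters had in common were compared for their borders, width, continuity, summit and rank of signal. An interval was a stretch that the authors called enriched, and it was counted as shared when it overlapped the other library's list by at least 1 bp. By this rule 15290 of 23842 parental intervals and 16378 of 47866 persister intervals were shared. PC9 is an established human lung adenocarcinoma line that carries an activating EGFR mutation. Parental cells received no drug. Persisters (DTP) were the PC9 cells still alive after 8 days in 1 µM erlotinib, an inhibitor of the EGFR kinase. A separate list from persisters that also received 50 nM trichostatin A (TSA), an inhibitor of histone deacetylases, for the last 5 hours served here only as a measure of how far 2 persister lists differ. All 3 states come from the same line, each has 1 H3K9me3 library, and the labels name no separate cultures. The cell identity could not be checked against expression markers, since the lists hold no RNA values.

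H3K9me3 is trimethylation of lysine 9 of histone H3, the mark of constitutive heterochromatin. The methyltransferases SUV39H1 and SUV39H2 place it at pericentromeric repeats, and SETDB1 places it at sites where KRAB zinc finger proteins recruit the corepressor TRIM28. HP1 proteins bind the mark and recruit further methyltransferase, by which it can spread along chromatin into broad domains. Zinc finger gene clusters, above all on chromosome 19, carry some of the broadest of these domains, and retrotransposons carry many narrow ones. A called interval is a stretch of a population average, so that the mark in fewer cells and a thinner mark in every cell cannot be told apart.

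With 1 library per state no difference could be tested. Every interval in brackets is at 95% confidence and covers counting error over intervals of the same libraries, not the spread between cultures. The lists give no read totals, so the depth of each library is unknown. Interval ends lie on a grid of 200 bp, the smallest gap within any list was 800 bp, and summit positions and signals rest on bins of about 32 bp. Signal was used only as a rank within a library, because how it was scaled between libraries is unknown. The lists also differ in length and in the width of their intervals, with a median of 3800 bp in the parental list and 2400 bp in the DTP list.

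Most shared intervals stood opposite a single partner. The overlaps formed 14711 groups, of which 13342 (90.7%, 90.2 to 91.2) were pairs of 1 parental and 1 DTP interval. In 915 groups 1 parental interval faced several DTP intervals, which numbered 2276. In 321 groups 1 DTP interval faced several parental intervals, which numbered 691. The remaining 133 groups held several intervals on both sides, 342 parental and 439 DTP. Measured the same way, 92.2% of the groups between DTP and DTP + TSA were pairs.

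The borders of paired intervals differed by a few grid steps in most cases, and more of the moved borders lay inward than outward in DTP. Of 26684 borders, 13.33% were at the same step in both lists, 31.2% were within 1 step of 200 bp and 65.7% were within 1 kb. The median absolute shift was 600 bp, and 3.35% of the borders lay more than 5 kb apart. Among the 23127 borders that were not at the same step, 57.5% (56.8 to 58.1) lay inward of the parental border. Inward shifts summed to 19.6 Mb and outward shifts to 13.5 Mb, each with a median of 800 bp. The left and right ends behaved alike, with 50.5% of left and 49.2% of right borders inward and 36.2% and 37.5% outward. Between DTP and DTP + TSA the borders lay closer together. There 27.2% were at the same step, 86.0% were within 1 kb, the median shift was 200 bp and 0.758% lay more than 5 kb apart. The inward share of the moved borders was 54.7% (54.2 to 55.2) in that step.

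**Figure D1:**
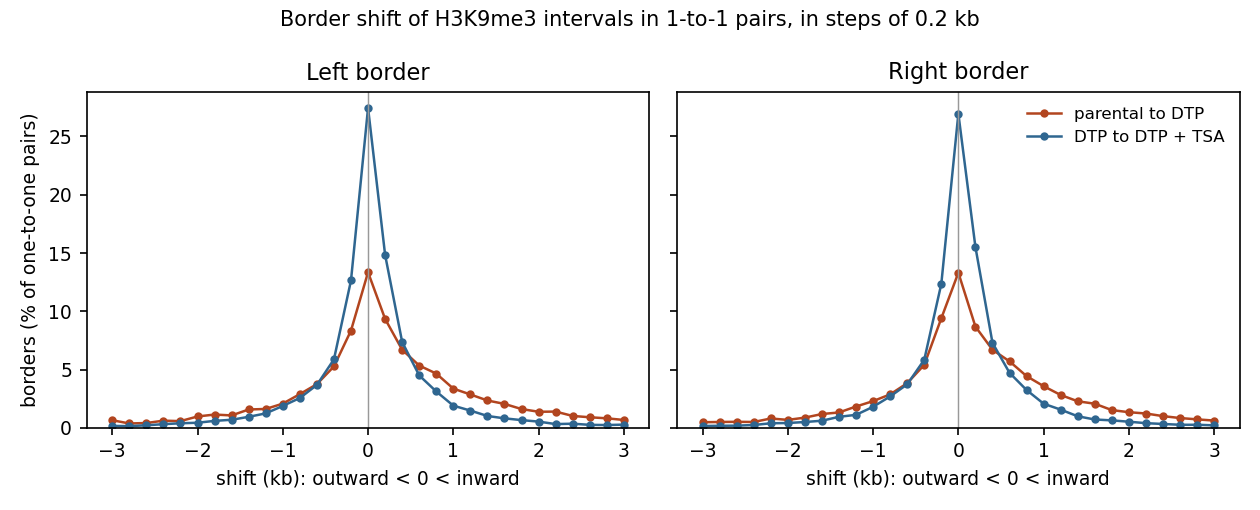
Shift of the left and the right border in pairs of 1 interval each, in steps of 0.2 kb on the x axis (inward positive), as a percentage of all pairs on the y axis; shifts beyond 3 kb are not drawn. The parental to DTP curve has a lower peak at 0 than the DTP to DTP + TSA curve (13.33% against 27.2% of borders over both ends) and lies higher on the inward side than on the outward side.

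Both borders together gave 5 kinds of pair. Both ends lay inward in 3721 pairs (27.9%) and both lay outward in 2086 (15.6%). In 4291 pairs (32.2%) the interval slid, with 1 end inward and the other outward. Exactly 1 end was unmoved in 2931 pairs (22.0%), and both were unmoved in 313 (2.35%). Slid intervals were thus more frequent than intervals that were shorter at both ends. The DTP interval lay wholly within the parental interval in 41.9% of pairs, and the parental interval within the DTP interval in 28.2%. The overlap made up a median of 61.5% of the stretch that the pair covered, against 76.5% for pairs of DTP and DTP + TSA.

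Paired intervals were slightly narrower in DTP. Median widths were 3800 bp (parental) and 3400 bp (DTP), and the median ratio of DTP to parental width was 0.929 (0.917 to 0.938). The ratio ranged widely, with quartiles of 0.633 and 1.31. The DTP interval was narrower in 7179 pairs (53.8%), equal in 761 (5.70%) and wider in 5402 (40.5%). Summed over the pairs, parental intervals spanned 62.7 Mb and DTP intervals 56.6 Mb, of which 43.1 Mb overlapped. The median ratio was 1.00 when neighbours within 5 kb were joined first, and also when only intervals above their own library's median mean signal were used, so that the narrower width did not hold under these settings. The DTP interval spanned at most 0.5 of the parental width in 2188 pairs (16.4%) and at least 2 times that width in 1415 (10.6%). Between DTP and DTP + TSA the median ratio was 1.00, and these shares were 7.30% and 5.31%. The rank correlation of width (Spearman's rho) was 0.433 over the 13342 parental and DTP pairs and 0.747 over the 30481 pairs of DTP and DTP + TSA, as a description across intervals that share their 2 libraries.

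The width ratio depended on which list set the width class. By parental width, the median ratio was 1.50 in 2125 pairs up to 2 kb, 1.00 in 5252 pairs over 2 to 4 kb, 0.762 in 4464 pairs over 4 to 8 kb, 0.636 in 1325 pairs over 8 to 16 kb and 0.458 in 176 pairs over 16 kb. The share of narrower DTP intervals ran over the same classes from 15.7% to 85.8%. Classed by DTP width, the order turned, and the ratio was 0.588 in the narrowest class and 1.30 in the class over 8 to 16 kb. Classed by the geometric mean of both widths, it stayed between 0.895 and 1.00 in every class. The fall with parental width is therefore not shown as a property of wide parental domains.

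**Figure D2:**
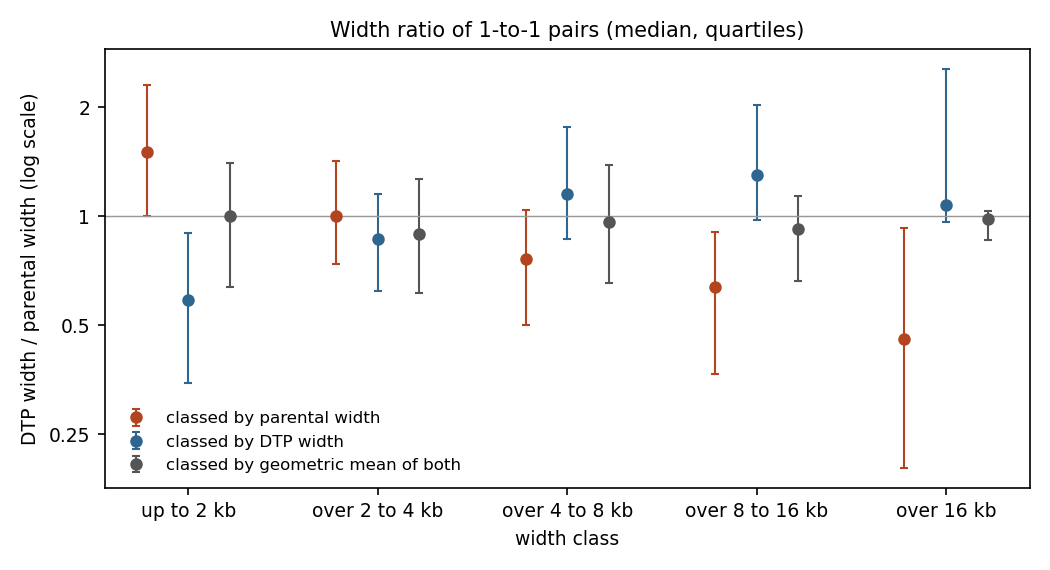
Ratio of DTP to parental width (y axis, log scale) by width class (x axis) for pairs of 1 interval each. Points are medians and bars the quartiles, in 3 ways of setting the class. The parental classes run from 1.50 down to 0.458, the DTP classes from 0.588 up to 1.30 and then 1.08, and the classes by geometric mean stay between 0.895 and 1.00.

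In the 3 pairs with the largest loss of called width, the DTP interval spanned at most 0.5 of the parental width. At 7p12.1 a parental interval of 49.8 kb (chr7:50886001-50935800) faced a DTP interval of 2.6 kb, which lay 25.6 kb inside the left and 21.6 kb inside the right border. The interval of DTP + TSA covered 5.62% of the same parental stretch. At 7p14.1 a parental interval of 35.6 kb (chr7:41135601-41171200) faced 3.0 kb in DTP. The rank of mean signal was 53.1 in parental and 86.6 in DTP at 7p12.1, and 68.9 and 26.3 at 7p14.1. At Yq12, a heterochromatic band of repeats, 63.6 kb (chrY:58969601-59033200) faced 31.8 kb, with the summit at the same position and the right border 31.0 kb further in. In the 2 pairs on chromosome 7 both borders were far inward, whereas at Yq12 nearly all of the difference was at 1 end.

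The 3 largest gains of width lay near a chromosome end or close to a centromere. At 20q13.33 a parental interval of 5.6 kb (chr20:62015801-62021400) faced 57.6 kb in DTP, of which 46.4 kb was to its right, and the summits were 0.096 kb apart. At 5p11 2.8 kb (chr5:46399801-46402600) faced 39.4 kb, with 33.6 kb to the left. At 11p11.12 5.8 kb (chr11:48802201-48808000) faced 41.8 kb, with 35.4 kb to the left. The parental interval at 11p11.12 was among the weakest of its library, at percentile rank 0.0273 of mean signal, and that at 5p11 was at 6.805. The one at 20q13.33 was at 98.5. In all 3 pairs the gain was mainly at 1 end.

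Parental domains that were broken into several DTP intervals were wide ones. Of the shared parental intervals 1086 overlapped 2 or more DTP intervals, which is 7.1% (6.70 to 7.52) of 15290. In the other direction 481 of 16378 shared DTP intervals (2.94%, 2.68 to 3.21) overlapped 2 or more parental intervals. Both shares depended on how the lists were cut. When each library gave an equal number of its strongest intervals, 4.11% of parental intervals were split and 3.16% of DTP intervals joined several. When neighbours within 5 kb were joined first, the shares were 3.17% and 1.63%. Between DTP and DTP + TSA 5.31% (5.07 to 5.55) of the shared DTP intervals were split and 3.11% (2.93 to 3.30) of the DTP + TSA intervals joined several.

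The split share climbed steeply with width. It was 2 of 2252 parental intervals up to 2 kb, 50 of 5619 (0.890%) over 2 to 4 kb, 272 of 4995 (5.45%) over 4 to 8 kb, 376 of 1810 (20.8%) over 8 to 16 kb and 386 of 614 (62.9%, 58.9 to 66.7) over 16 kb. Between DTP and DTP + TSA the share climbed too, to 24.5% over 8 to 16 kb and 53.0% over 16 kb. The share from DTP to DTP + TSA was the higher of the 2 steps over 4 to 8 kb, at 11.5%, and also over 8 to 16 kb. Over 16 kb it was the lower. DTP intervals over 16 kb joined several parental intervals in 33.9%. The median width of a split parental interval was 11600 bp, against 3800 bp for those that were not split. Split intervals also stood higher in their library, with a median rank of 79.9 for summit signal and 68.6 for mean signal, against 59.0 and 59.4. These ranks were not compared at like width, and the summit of a wider interval is taken over more bins.

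**Figure D3:**
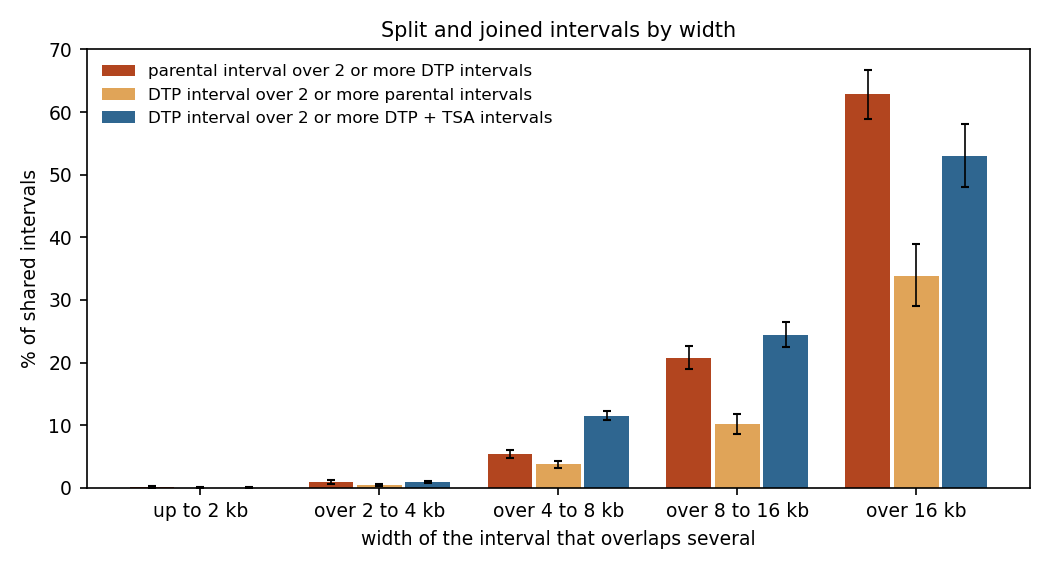
Share of shared intervals that overlap 2 or more intervals of the other list (y axis, %) by their own width (x axis); bars are shares and error bars exact 95% binomial intervals. All 3 series climb with width, and over 16 kb the share is 62.9% for parental intervals over DTP, 33.9% for DTP intervals over parental and 53.0% for DTP intervals over DTP + TSA.

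Most split domains were in few pieces with short gaps. There were 861 parental intervals with 2 DTP pieces, 116 with 3 and 109 with 4 or more. The split intervals summed to 21.7 Mb, of which DTP pieces covered 15.0 Mb (69.3%), gaps between pieces took 3.75 Mb (17.3%) and uncovered ends 2.92 Mb (13.45%). The 1667 gaps had a median of 1200 bp, and 514 of them (30.8%) had the smallest length that the lists allow, 800 bp. Gaps over 5 kb numbered 160 (9.60%). The longest piece spanned a median of 42.3% of the parental width. The parental summit lay inside a DTP piece in 1016 of 1086 split intervals (93.6%) and inside the DTP interval in 13298 of 14204 unsplit ones (93.6%). It lay in the piece with the highest summit signal in 675 (62.2%) and in the longest piece in 718 (66.1%).

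The gaps of the split domains were partly filled in the list of DTP + TSA. That list covered 31.2% of the gap length and 84.2% of the piece length. Of the gaps 635 (38.1%) had no cover, 546 (32.8%) had some and 486 (29.2%) were wholly covered. Of all DTP gaps of 2 kb or less, within split domains or not, 1087 of 4592 (23.7%) were wholly covered in that list. That share is not on a like footing with the 29.2%, since only 1196 of the 1667 gaps in split domains (71.7%) were of 2 kb or less. The wholly covered share of those shorter gaps was not taken. Among the 1086 parental intervals that were split in DTP, 597 (55.0%) were split in DTP + TSA too, 429 (39.5%) overlapped 1 interval there and 60 (5.52%) none. Of the 14204 that were not split in DTP, 536 (3.77%) were split in DTP + TSA. These 2 sets were not of like width, with medians of 11600 bp (split in DTP) and 3800 bp (not split). The share of shared parental intervals split in DTP + TSA also climbed with width, to 63.4% over 16 kb. The 2 sets were not compared at like width.

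The most divided domains lay in bands that hold clusters of KRAB zinc finger genes. Of the 10 parental intervals with 10 or more DTP pieces, 5 were in 19p12, 2 in 12q24.33 and 1 each in 7p11.2, 19q13.12 and 19q13.31. The longest shared parental interval, 271.2 kb at 19p12 (chr19:19894801-20166000), was also the one with the most pieces. It faced 20 DTP intervals that covered 77.7% of it, the longest of them 23.2 kb, and 21 intervals of DTP + TSA that covered 79.1%. A second interval in 19p12, of 152.8 kb (chr19:22125201-22278000), faced 19 DTP pieces that covered 55.0% of it and 13 pieces in DTP + TSA that covered 54.6%. At 12q24.33, near the end of the long arm, an interval of 136.8 kb (chr12:133614401-133751200) faced 19 DTP pieces that covered 77.9% and 15 in DTP + TSA that covered 78.8%. Many of the larger gaps were open in both persister lists, as the map of the 3 domains shows. Shorter gaps often differed. In the domain of 271.2 kb, a DTP + TSA interval from 22.0 to 55.6 kb after its start ran across DTP gaps.

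**Figure D4:**
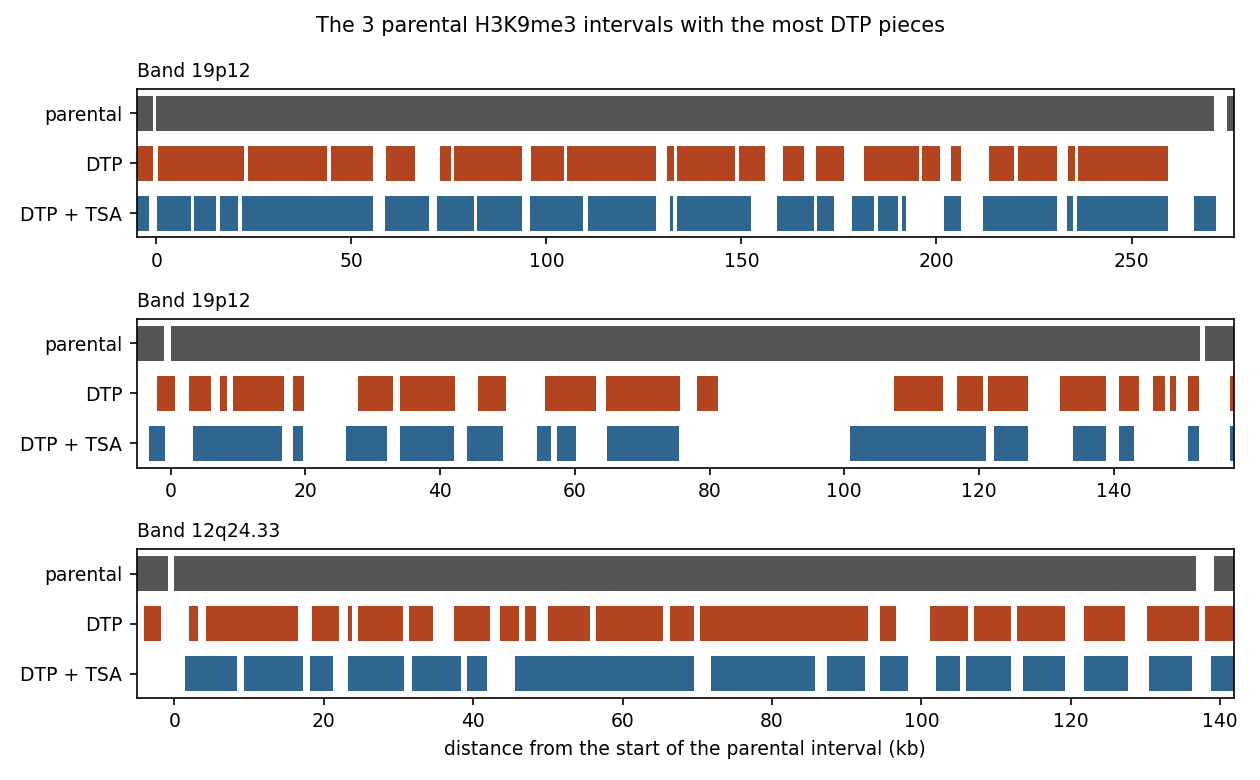
Called intervals of parental, DTP and DTP + TSA cells (3 tracks) over the 3 parental intervals with the most DTP pieces; the x axis is the distance from the start of the parental interval in kb, with 5 kb on each side. The parental interval of 271.2 kb faces 20 DTP pieces, that of 152.8 kb 19 and that of 136.8 kb 19, and many of the larger gaps are open in both persister lists.

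At 19q13.43 the longest domains were nearly wholly covered. The second longest shared parental interval, 192.6 kb at 19q13.43 (chr19:58546001-58738600), faced a single DTP interval of 205.0 kb that reached 6.4 kb further left and 6.0 kb further right. Its neighbour of 184.0 kb (chr19:58361201-58545200), the third longest, faced 3 DTP intervals that covered 96.6% of it, and the last of these was the same DTP interval of 205.0 kb. The 6 zinc finger bands of chromosome 19 thus differed among themselves. DTP covered 64.1% of the shared parental length in 19p12, 73.5% in 19q13.31 and 78.1% in 19q13.12. It covered 89.2% in 19p13.2, 89.8% in 19q13.43 and 90.3% in 19q13.41. The share of split intervals was 57.98% of 119 in 19p12 and 55.2% of 29 in 19q13.41, so that a like split share went with different cover. It was 24.0% of 50 in 19q13.43.

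The zinc finger bands of chromosome 19 together had 166 of 387 shared parental intervals split (42.9%, 37.9 to 48.0), against 7.1% over all. Their intervals were also wider, with a median of 13200 bp against 4000 bp. Over 4 to 8 kb, 6 of 71 in these bands were split (8.45%, 3.16 to 17.5), against 5.45% over all. These are too few to size an excess at like width. Among parental intervals over 16 kb, 131 of 164 in these bands were split (79.9%, 72.9 to 85.7) and 247 of 410 outside these bands and the centromeric and variable ones (60.2%, 55.3 to 65.0). These were not of like width, with a median of 34.1 kb in the zinc finger bands and 23.1 kb outside, and neighbouring domains of a band are not independent draws. DTP covered 62.0% of the length of the domains outside, less than the 77.8% in the zinc finger bands. Long domains in centromeric and variable bands other than 19p12 were mostly kept whole, with 8 of 40 split (20%, 9.05 to 35.6) and 88.2% covered.

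Joined domains were fewer and lay close to centromeres in the 3 largest cases. DTP intervals that faced several parental intervals had a median width of 9200 bp, against 3400 bp for the others. They bridged 579 parental gaps with a median of 1000 bp and a sum of 1.07 Mb. At 12q12 a DTP interval of 77.8 kb (chr12:38316801-38394600) faced 10 parental intervals that made up 78.4% of it, and 4 intervals in DTP + TSA. At 7q11.21 a DTP interval of 91.8 kb (chr7:62355801-62447600) faced 5 parental and 12 DTP + TSA intervals. At 11q11 one of 64.6 kb (chr11:54793801-54858400) faced 5 parental and 5 DTP + TSA intervals. In each of these 3 the DTP interval was broken up in the other persister list as well, so that the joined form was seen in 1 of the 3 libraries.

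Summits lay closer together than borders at the median, but the 2 measures are not alike. Borders rest on the grid of 200 bp and summits on bins of about 32 bp, and a summit must lie inside its own interval. The median distance between the parental and the DTP summit of a pair was 240 bp (224 to 248), with quartiles of 80 and 816 bp. It was at most 32 bp in 14.2% of pairs, at most 200 bp in 45.6%, at most 1 kb in 78.7% and over 5 kb in 342 pairs (2.56%). The DTP summit lay inside the parental interval in 94.98% of pairs, and the parental summit inside the DTP interval in 93.7%. Between DTP and DTP + TSA the median was 128 bp, with 61.0% within 200 bp. The distance was shorter in strong intervals. In parental intervals up to rank 10 of mean signal the median was 686 bp and 26.5% were within 200 bp, and above rank 90 it was 128 bp and 61.9%. By width it went from 160 bp in parental intervals up to 2 kb to 560 bp over 8 to 16 kb and 1580 bp over 16 kb. As a share of the parental width the median was 10.4% up to 2 kb, 5.71% over 8 to 16 kb and 7.14% over 16 kb.

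The pairs with the most distant summits lay next to centromeres. At 10p11.1 a parental interval of 47.4 kb (chr10:38771401-38818800) and a DTP interval of the same width had borders 0.2 kb apart and summits 39.6 kb apart. The summit signals ranked 98.66 and 98.97 in their libraries. At 11p11.12, in the pair with the large gain of width given above, the summits were 31.4 kb apart. At 16p11.1 a parental interval of 1.2 kb (chr16:35192401-35193600) faced 35.8 kb in DTP, with the summit 22.8 kb away. Only at 10p11.1 did the summit lie elsewhere in an otherwise matching domain.

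Rank of signal was held in part. Ranks run from 0 for the weakest to 100 for the strongest interval of a library. Spearman's rho between parental and DTP over the 13342 pairs was 0.492 for mean signal and 0.588 for summit signal, as a description with no test. It was 0.707 and 0.760 over the pairs of DTP and DTP + TSA. The median absolute difference in rank was 19.3 points for mean signal and 16.2 for summit signal. Of 1653 pairs in the parental top 10% by mean signal, 1024 (61.9%) were in the DTP top 10%, and of 165 in the top 1%, 108 (65.5%) were in the DTP top 1%. By summit signal, 1095 of 1564 (70.0%) and 116 of 163 (71.2%) kept these places. Read from the DTP side, the same 1024 pairs were 35.3% of the 2903 pairs in the DTP top 10% by mean signal, and the same 1095 were 36.8% of 2978 by summit signal. The DTP list is the longer, so its top 10% holds more pairs. Up to parental rank 10 the median DTP rank was 39.5, with quartiles of 16.4 and 60.1. From rank 50 to 60 the quartiles of the DTP rank were 31.9 and 82.3, and above rank 90 they were 81.9 and 98.5.

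Over the whole lists the rank of mean signal was higher in DTP by 25 points or more in 3201 pairs (24%) and lower by as much in 2180 (16.3%). These lists differ in length, so this surplus shows no gain of the mark. For the comparison of regions, ranks were taken among the pairs alone, where both sides have the same number. This fixes the mean difference over all pairs at 0, and 2639 pairs (19.8%) were then higher and 2631 (19.7%) lower by 25 points or more. The difference in width was nearly unrelated to the difference in rank of mean signal (rho −0.04) and somewhat related to that of summit signal (rho 0.32), both over the 13342 pairs.

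**Figure D5:**
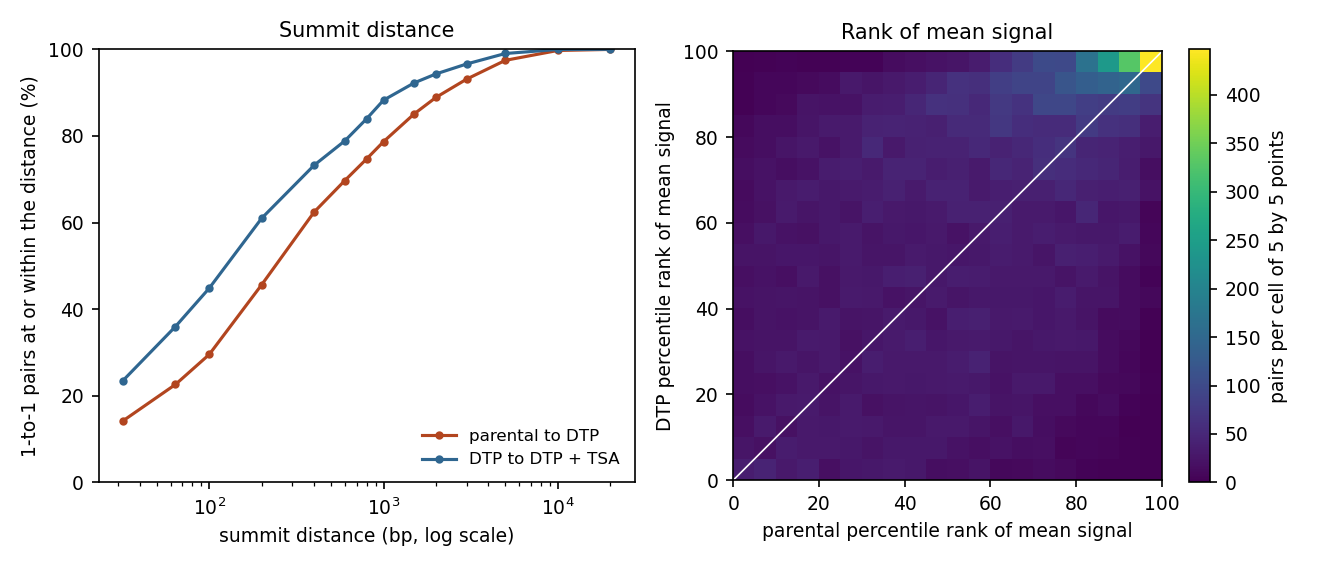
Left, share of pairs (y axis, %) whose summits lie at or within a distance (x axis, bp, log scale), for parental to DTP and for DTP to DTP + TSA; at 200 bp the curves are at 45.6% and 61.0%. Right, number of parental and DTP pairs (colour) by percentile rank of mean signal in the parental list (x axis) and in the DTP list (y axis), with the line of equal rank; pairs gather at the top right, where 1024 pairs are in the top 10% of both lists.

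Rank among the pairs differed by region, though the regions were not compared at like parental rank. On chromosome 19 outside its zinc finger bands the median difference, DTP minus parental, was −13.24 points (−22.6 to −8.54) over 186 pairs, with 40.9% lower and 8.60% higher by 25 points or more, against 19.7% and 19.8% over all pairs. In the zinc finger bands it was −8.42 points (−16.1 to −3.79) over 161 pairs. Chromosome 22, which like chromosome 19 is rich in genes, had −13.9 points (−20.7 to −8.15) over 165 pairs. Chromosomes 16 and 17 were also lower, at −8.88 points (−13.9 to −3.72) and −6.52 points (−8.33 to −3.12). Pairs within 5 Mb of a chromosome end had −8.74 points (−10.2 to −7.29) over 1403 pairs. On the other side stood the dark-staining bands, which are poor in genes and rich in AT, with 5.09 points (4.31 to 6.13) over 3714 pairs. Chromosome X had 4.23 points (2.40 to 7.14) over 476. It did not stand apart from the autosomes, with 6.01 points on chromosome 13, 5.08 on chromosome 4, 4.50 on chromosome 5 and 4.23 on chromosome 6. Light bands had −1.06 points (−1.91 to −0.37) over 6545 pairs, but 2.48 points (1.80 to 3.08) when ranked over the whole lists, so that their direction turned with the ranking. For summit signal the difference among pairs was −10.6 points on chromosome 19 outside the zinc finger bands, −5.76 near chromosome ends, 3.03 in dark bands and 6.99 on chromosome X. In the zinc finger bands it was −2.81 points (−7.23 to 0.76), and ranked over the whole lists it was 1.13 points there. The pairs also started at unlike ranks of mean signal in the whole parental list. The median parental rank was 79.1 near chromosome ends, 77.2 on chromosome 22 and 73.1 in the zinc finger bands. It was 72.0 on the rest of chromosome 19, 54.5 in dark bands and 43.3 on chromosome X, against 59.8 over all pairs. Whether the regional order goes beyond these starting ranks was not tested.

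Width and borders followed another order. The median width ratio was 0.909 in dark, 0.934 in grey and 0.933 in light bands, and 1.00 within 5 Mb of a chromosome end. On chromosome X, where the paired parental intervals were narrower (median 3000 bp against 3800 bp), it was 1.08, with 46.6% of moved borders inward against 57.5% over all and 18.5% of pairs at least 2 times as wide in DTP against 10.6%. At a parental width over 4 to 8 kb the ratio on chromosome X was 0.773 (0.652 to 0.909), close to the 0.762 over all. In that width class it was 0.714 in dark bands, 0.786 in light bands and 0.952 within 5 Mb of a chromosome end. Centromeric and variable bands had a ratio of 1.00 with 19.2% of pairs at least 2 times as wide. The distance between summits was within 224 to 312 bp in all 8 regional classes.

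The pairs with the largest differences of rank within the library were intervals of ordinary width. At 11q12.2 an interval of 7.2 kb (chr11:60931201-60938400) was at rank 10.8 of mean signal in parental cells and its DTP partner of 3.6 kb at 96.4. At 14q21.2 (chr14:43841001-43845200) the ranks were 7.27 and 91.8, and at 2p25.1 (chr2:8812401-8818200) 11.8 and 94.0. The largest fall was at 21q22.3 (chr21:47800001-47806800), from 97.9 to 3.37, where the DTP interval covered 17.6% of the parental one and its summit was 4.11 kb away. At 6p23 (chr6:14268201-14276600) the ranks were 85.5 and 1.90, and at 1q32.1 (chr1:204134801-204140600) 90.6 and 7.89. The last of these had no interval in the DTP + TSA list. At 21q22.3 the small overlap means that the 2 intervals were largely different stretches.

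Pairs were also picked by a DTP width of about 6 kb, the length of a full LINE-1 element. Picking by the width of 1 list favours narrower partners in the other. The 813 pairs with a DTP width of 5.8 to 6.2 kb had a median parental width of 4600 bp and a median ratio of 1.35, and the DTP interval was the wider in 68.3% (64.9 to 71.5). That share was 53.5% in 641 pairs of 4.8 to 5.2 kb and 65.6% (61.2 to 69.8) in 491 pairs of 6.8 to 7.2 kb. By this share the 6 kb class did not stand apart from the class above it. Its median ratio was the highest of these classes, with 1.04 in the class below and 1.25 in the class above. Over 4 to 8 kb as a whole, the ratio was 1.15 classed by DTP width and 0.964 classed by the geometric mean of both widths. The shorter parental partners are therefore not shown as a property of intervals of LINE-1 length.

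The 2 persister lists were nearer to each other than either was to the parental list. In 10546 of the 13342 pairs (79.0%) the DTP interval was also paired with 1 interval of DTP + TSA. Over these domains the median absolute border shift was 600 bp from parental to DTP, 200 bp from DTP to DTP + TSA and 600 bp from parental to DTP + TSA. The summit distances were 224, 128 and 224 bp, and the median widths 3800 bp in parental, 3400 bp in DTP and 3200 bp in DTP + TSA. Where the left border was not at the same step in parental and DTP, the border in DTP + TSA was nearer to the DTP position in 67.3% and nearer to the parental position in 28.8%. Where it lay more than 1 kb inward in DTP, it was nearer to DTP in 82.8% of 2076 domains, and where it lay more than 1 kb outward, in 71.4% of 1362. The right border gave 82.4% and 69.9%. The domains were chosen through the DTP list, which the first 2 comparisons share, and a difference between cultures or libraries cannot be told apart from one between parental and persister cells.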

How the data were processed

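H3K9me3 ChIP-seq lists from PC9 cells, 1 library per state, were analysed. Input and H3K4me3 libraries were not analysed here. Each deposited list gives interval positions, a summit position, a number of bins and, as the authors' signal, a summit value and a mean value per interval, per the file headers. BWA, SICER, hg19 and dm3 are named without roles, per the submitters' processing notes. No label or header gives the calling threshold, the control or any scaling. A deeper library or another threshold would change interval number and width.

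Coordinates are 1-based on hg19. Intervals overlapping by at least 1 bp were linked, and linked groups were counted. Shares of counts carry exact Clopper-Pearson 95% intervals and medians order-statistic intervals. Bands came from circlize 0.4.16. Python 3.11.15 with pandas 2.3.3 and scipy 1.17.1 was used. On 3000 parental intervals with simulated shifts and splits, 11 of 11 checks returned the known answer. No hg19 genome or gene annotation was used, so no sequence is shown.

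The members, regional classes and alternatives were chosen with earlier results of these data known. Named intervals are the 3 at the extreme of each measure (width, pieces, summit distance, rank where both intervals span at least 3 kb). The intervals with 10 or more pieces, the ranking among pairs and the comparison of long domains were chosen after the values were seen. Alternatives were a reciprocal overlap of 50%, joining neighbours within 2 or 5 kb, stronger intervals alone, equal numbers, no short intervals, autosomes alone, no chromosome 19 and, added later, no centromeric or variable bands.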

Additional observations from a re-analysis of the deposited data

How the results depend on the processing

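No paired analysis was possible because each state has 1 library. No library could be left out for the same reason, and no test stands behind any value. Depth and calling threshold are unknown, and both bear on how wide and how continuous a called interval is. Of the 8 results below, only the median width ratio and the inward share of moved borders had a direction that could turn. Neither turned in any alternative, but the ratio of 0.929 was exactly 1.00 in 2 of them. The other results were compared by size alone. Of 69 values under alternatives, 28 moved by less than their counting interval and 41 by more, and the cause was not tested. For the covered share of split intervals, which is pooled over length, the interval was borrowed from the median share per interval. It is only a rough yardstick there.

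Joining neighbours within 2 kb gave 4.004% split and 1.57% joined, a width ratio of 0.947, 56.0% of moved borders inward, 62.9% of split length covered and a summit distance of 256 bp. Joining within 5 kb gave 3.17%, 1.63%, 1.00, 54.1%, 60.8% and 256 bp, with rho of mean signal at 0.477. Intervals above their library's median mean signal gave 4.95%, 2.19%, 1.00, 53.6%, 61.9% and 160 bp, with rho 0.378 for mean and 0.509 for summit signal. Equal numbers of the strongest intervals gave 4.11% split, a ratio of 0.942, 56.3% inward, 61.5% covered, 192 bp and rho 0.450 and 0.576. Leaving out intervals below the pooled median width gave 6.63%, 3.53%, 0.947, 72.6% covered, 328 bp and rho 0.465 for mean signal. Without chromosome 19 the values were 6.08% split, 2.67% joined and 64.2% covered. Without centromeric and variable bands, chosen after seeing the data, 2.66% were joined. A reciprocal overlap of 50% gave a ratio of 0.947, 56.4% inward and rho 0.626 for summit signal. It allows no splits by construction, so it gave no value for split, joined or covered shares. With autosomes alone each value moved by less than its counting interval.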
